A study of Mus musculus with 3 samples.

Results

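Assembled transcript models of known genes that stop short of the RefSeq 3′ end were examined in the testes of wild-type C57BL/6J mice. Of 50081 transcript models in the deposited table, 7033 were assembled models that carried a gene symbol and a code beginning with NM_N. RefSeq models of the same symbol, chromosome and strand, whose code contains _R, were found for 6996 of these. The members were chosen by the position of their 3′ end, which lay 200 bp or more upstream of the 3′ end of every such RefSeq model. This rule kept 2705 models of 2181 genes, 38.7% of the NM_N models compared. Because position chose the members, distances and places of their ends are given below as descriptions, with no test.

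The series held 3 libraries of total RNA from wild-type C57BL/6J testes, 1 per group. CAGE, which reads capped 5′ ends, was run at 10.5 days post partum and in adults, and adult testes also gave a PAS-Seq library, in which the reads mark polyadenylation sites. The series has 1 table of models, which names no library, with positions in mm9 and exon lengths. It gives no read count, so the depth behind each end is unknown, and no model can be assigned to a library or an age. With no replicates, every interval below is an exact Clopper-Pearson 95% interval that covers counting error alone, and genes are not replicates of a condition.

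Most mammalian genes have more than 1 site at which the transcript can be cleaved and polyadenylated. A site further upstream within the last exon shortens the 3′ untranslated region, whereas a site in an intron or earlier exon removes exons and can change the protein. Male germ cells are known for frequent use of upstream sites, and express their own forms of the cleavage and polyadenylation machinery. The table gives no coding region, so whether an end cuts the coding sequence was not measured.

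The ends fell into 4 places. The RefSeq last exon, taken from the RefSeq model with the most distal 3′ end, held 1590 ends (58.8%, 95% interval 56.9 to 60.6) in 1251 genes. RefSeq introns held 752 ends (27.8%, 26.1 to 29.5) in 687 genes, and earlier RefSeq exons held 298 (11%, 9.86 to 12.3) in 293 genes. The remaining 65 models (2.40%, 1.86 to 3.05) ended upstream of all RefSeq models of their symbol. Of the 2181 genes, 107 had ends in 2 or more of these places. The symbols matched the GRCm38.p6 gene table, used for names and biotypes alone, in 2171 cases, and 2170 of these were protein-coding genes.

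**Figure D1:**
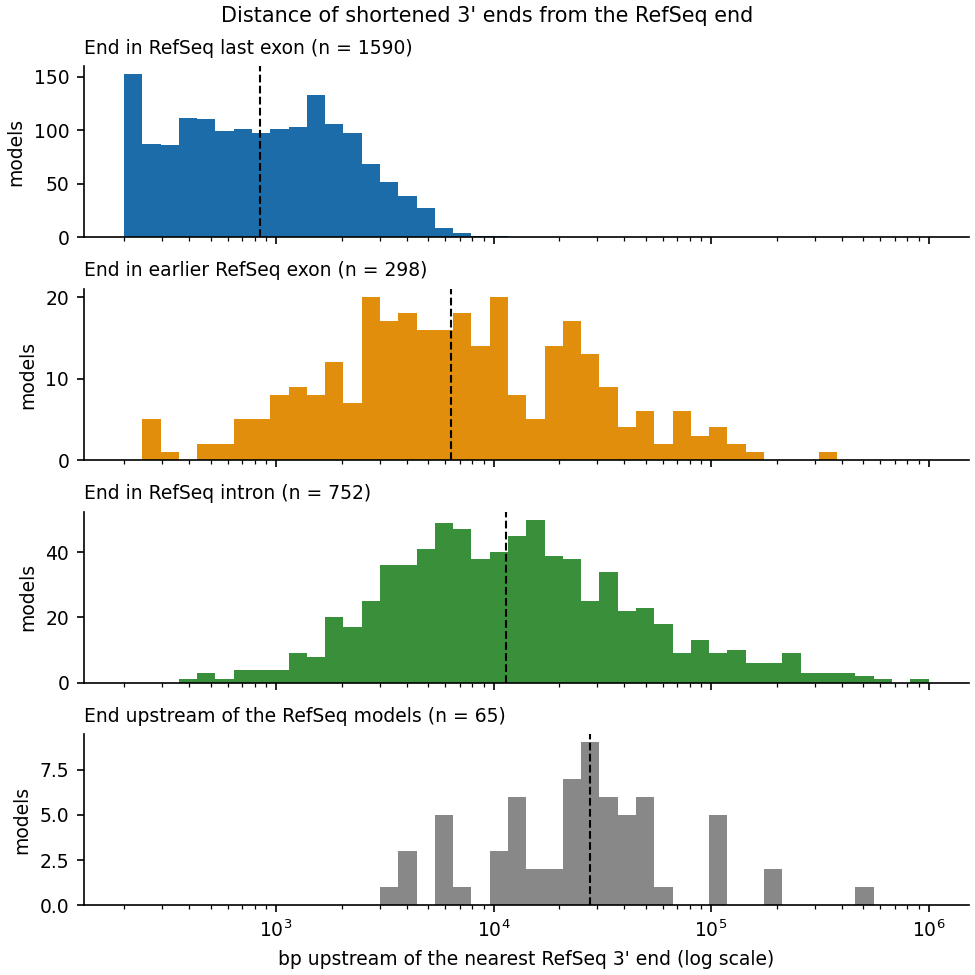
Number of shortened models (vertical axes) by the distance in bp of their 3′ end from the nearest RefSeq 3′ end (horizontal axis, log scale), in the 4 places where ends lay. Dashed lines are medians, which lie at 840 bp for last-exon ends, 6398 bp for earlier exons, 11367 bp for introns and 27659 bp for models upstream of the RefSeq models.

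Ends in the last exon lay a median of 840 bp upstream of the RefSeq end, with quartiles of 404 and 1701 bp. The missing part was under 500 nt in 520 models and 500 to under 1000 nt in 357. It was 1000 to under 2000 nt in 408 models, 2000 to under 5000 nt in 279 and at least 5000 nt in 26. The RefSeq last exons concerned had a median length of 1692 nt, of which the shortened model kept a median of 30.4% (quartiles 11 and 61.8). Here and below, the part kept is the span from the start of the RefSeq last exon to the model's end. The last exon of the model itself can be shorter than that span. In 530 models (33.3%) over 50% of the last exon was kept. In 449 models (28.2%) the kept part was 150 to 350 nt, a window chosen after the values were seen. In 246 models (15.5%) under 100 nt was kept and in 136 (8.55%) under 50 nt, so that these models reach the last exon and stop close to its start.

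The 200 bp limit did not fall at a gap in the distances. The 50 bp inside the limit held 171 models, and the 50 bp outside it held 187 that the rule left out. Just inside were Fam63a, Map3k10, Nt5c3, Rnf149 and Sec24b, each with an end exactly 200 bp upstream. Just outside were Gfi1 at 199 bp, Efnb1 at 198 bp, and Lin7c and both models of Atp6v1h at 197 bp.

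**Figure D2:**
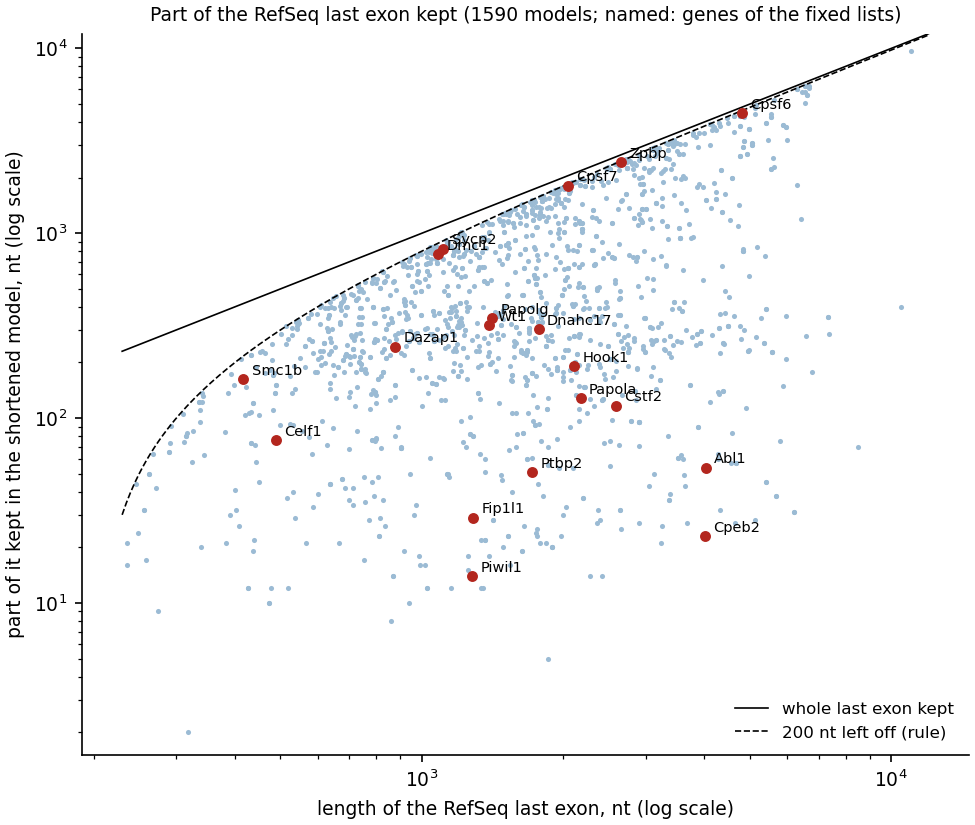
Part of the RefSeq last exon kept in each of the 1590 models that end there, in nt (vertical axis, log scale), against the length of that exon in nt (horizontal axis, log scale). The solid line marks a whole exon and the dashed line the 200 nt limit of the rule. Red points are genes of the fixed lists, from Cpsf6, which keeps 4466 of 4800 nt, to Piwil1, which keeps 14 of 1282 nt.

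Each last exon with a shortened end held exactly 1 such end. All 1251 genes had a single 3′ position there, although 292 of them had 2 or more shortened models ending in that exon. The same held over the whole table. Among pairs of assembled models of 1 assembled locus whose last exons overlap, all 1676 shared the 3′ position to the base, including all 419 pairs with a shortened model. Of 995 pairs with overlapping first exons, in contrast, 105 differed in their 5′ position. Only 2 genes with a shortened last-exon end, Asb8 and BC055111, also had an NM_N model within 200 bp of a RefSeq end. The table therefore sets each shortened end against RefSeq and not against a longer assembled form of the same last exon.

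The largest cuts within a last exon, by rule, were in 10 genes. Fzd3, a Frizzled receptor for Wnt proteins on chromosome 14, has a RefSeq last exon of 10492 nt, of which its shortened model kept 397 nt (65821373 to 65872733, minus strand). Tmod2, a tropomodulin that caps actin filaments, kept 70 of 8502 nt. Fmn1, a formin that nucleates actin filaments, kept 286 of 7352 nt. N4bp2l2 kept 353 of 7343 nt and Tsc22d2 kept 177 of 6780 nt. Agap1, which stimulates the GTPase activity of Arf proteins, kept 278 of 6592 nt. The corepressor subunit gene Tbl1xr1 kept 31 of 6194 nt, and Sbno1 kept 210 of 5970 nt. Pappa, a metalloproteinase that cleaves insulin-like growth factor-binding proteins, kept 150 of 5892 nt, and Samd8, a sphingolipid enzyme, kept 75 of 5789 nt. All 10 kept under 5% of the exon, and the starts of 2 of them, Tmod2 and Pappa, lay within 200 bp of a RefSeq start.

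Ends within introns took 2 forms. In 527 of 752 models (70.1%, 66.7 to 73.3) the last exon of the model overlapped a RefSeq exon, as when an exon runs on into the intron (a composite terminal exon). In 225 (29.9%, 26.7 to 33.3) it overlapped no RefSeq exon. The first form ended a median of 158 nt past the donor, the 5′ boundary of the intron (quartiles 60.5 and 278), and 218 of the 527 ended 100 to 300 nt past it, a window chosen after the values were seen. The second form ended a median of 2121 nt past the donor (879 and 5314). Its last exons were short, with a median of 52 nt (quartiles 24 and 222, lowest 1 nt) against 336 nt (222 and 619) in the first form. With no read counts, the support for such short last exons is unknown. Over both forms, 47 models (6.25%) ended within 10 nt of the donor.

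**Figure D3:**
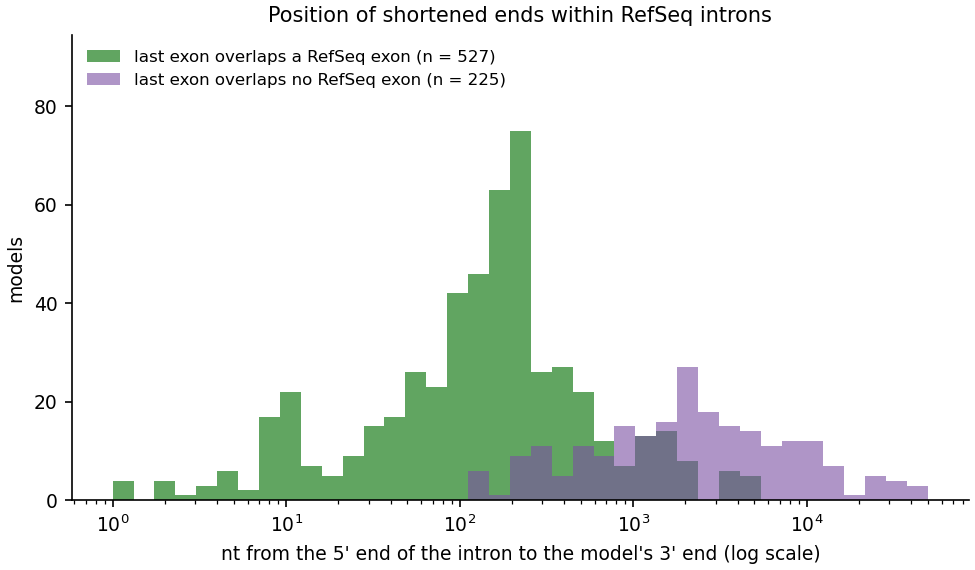
Number of shortened models with an end in a RefSeq intron (vertical axis) by the distance in nt from the 5′ boundary of that intron to the end (horizontal axis, log scale). Green bars are models whose last exon overlaps a RefSeq exon (527, median 158 nt) and purple bars those whose last exon does not (225, median 2121 nt); overlapping bars appear darker.

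Of the intronic ends in genes with 2 or more introns, 588 of 746 (78.8%, 75.7 to 81.7) lay in the downstream part of the introns, counted by intron number. The middle intron of an odd number was counted as downstream, and the share under an even spread was not computed. The last intron held 192 of 752 (25.5%, 22.4 to 28.8) and the first intron 34 (4.52%, 3.15 to 6.26). The longest intron of the gene held 111 (14.8%, 12.3 to 17.5), and over the 752 models that intron made up a median of 33.4% of all intron sequence. This median is not the share of ends under an even spread, which was not computed here either. Of the 1050 models that ended in an intron or an earlier exon, 284 (27.0%) left off 1 RefSeq exon and 151 (14.4%) left off 10 or more. Ends in earlier exons left off a median of 2 exons and intronic ends a median of 3.

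The most RefSeq exons were left off in long genes. Among intronic ends, the model of Wdfy4 had 13 exons against 59 in RefSeq and 1 of the 2 models of Ep400, a chromatin-remodelling ATPase, had 5 against 52. Both left off 47 exons, and they ended 3 nt past the donor of intron 12 in Wdfy4 and 233 nt past that of intron 5 in Ep400. The model of the nuclear receptor corepressor gene Ncor1 had 38 RefSeq exons downstream of its end. It was a single exon that lay wholly within intron 8 and overlapped no RefSeq exon. Dst, which encodes a linker between cytoskeletal filaments, left off 37 in 1 model and ended in the last exon in the other, and the planar polarity receptor gene Celsr1 left off 34 with a single exon that ended 60 nt into intron 1. The others were Svil (31 exons left off), Dscaml1 (30), Sdk2 (27) and Fry (26).

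Among ends in earlier exons, Acaca, the acetyl-CoA carboxylase of fatty acid synthesis, had 8 exons against 54 in RefSeq and stopped 169964 bp upstream of the RefSeq end. Vps13b left off 40 exons and so did Hydin, which encodes a protein of the central pair of motile cilia and sperm tails. That Hydin model had 46 exons, and a second model with the same start had 86 exons and ended 214 bp short of RefSeq in the last exon. The chromatin remodeller gene Atrx left off 25 exons and the ubiquitin ligase gene Trip12 left off 21.

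A few microRNA hairpins lay in the parts that shortened models left off. The table held 593 hairpin models, of which 25 lay in 23 genes with a shortened model on the same strand. Of these, 21 were within the span of the shortened model and 4 lay between its end and the RefSeq end. The mature sequences of those 4, and of 3 hairpins inside shortened models that share a seed, are printed to show which microRNAs each form spans. For the 3 hairpins that share a seed the 5p arm, which carries it, is shown and the 3p arm is not. Sequences are from RefSeq (GRCm38.p6), 5′ to 3′, and capitals mark the seed, bases 2 to 8.
mmu-miR-33-5p: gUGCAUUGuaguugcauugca
mmu-miR-33-3p: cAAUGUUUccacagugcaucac
mmu-miR-186-5p: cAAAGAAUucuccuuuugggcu
mmu-miR-186-3p: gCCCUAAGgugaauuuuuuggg
mmu-miR-1902: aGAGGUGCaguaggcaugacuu
mmu-miR-1904: gUUCUGCUccucuggagggagg
mmu-let-7f-5p: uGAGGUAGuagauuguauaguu
mmu-miR-98-5p: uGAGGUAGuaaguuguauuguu
mmu-let-7g-5p: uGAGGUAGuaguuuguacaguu

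Srebf2, a transcription factor that activates cholesterol synthesis, is the known host of miR-33. Its shortened model on chromosome 15 (81977686 to 82004287) had 4 exons against 19 in RefSeq, ended 958 nt into intron 4, and stopped 24265 bp before the Mir33 hairpin (82028552 to 82028620). It started 13 bp from the RefSeq start and had no intron that RefSeq lacks. In Zranb2, which encodes a zinc-finger splicing factor, the shortened model ended in exon 8, 1092 bp before the Mir186 hairpin (157207243 to 157207313 on chromosome 3). In Hipk3, a homeodomain-interacting kinase gene on chromosome 2, both shortened models kept 286 of the 3850 nt of the last exon. The Mir1902 hairpin (104269018 to 104269097) lay 1106 bp beyond their end, in the left-off part of that exon.

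In Pde4d, a cyclic AMP phosphodiesterase gene on chromosome 13, the shortened model lay across the Mir582 hairpin and ended 130977 bp before Mir1904. The 3 hairpins with the let-7 seed lay inside shortened models. Mirlet7f-2 and Mir98 lay 21984 and 21116 bp upstream of the end of the Huwe1 model on X, which kept 50 of 1138 nt of the last exon. Mirlet7g lay 12016 bp upstream of the end of the Wdr82 model, which kept 2261 of 3111 nt. These are positions alone, and the level of no microRNA was measured here.

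Genes of the cleavage and polyadenylation machinery were themselves among the members. Of 24 genes in this list 12 had an NM_N model, and 6 of the 12 had a shortened end, all in the last exon. The share over all genes with an NM_N model was 41.7%, or 2181 of 5225. Cstf2, the RNA-binding subunit of cleavage stimulation factor on X, kept 117 of 2590 nt. Fip1l1, which links the cleavage complex to poly(A) polymerase, kept 29 of 1286 nt in both its models. The poly(A) polymerase genes Papola and Papolg kept 128 of 2179 nt and 346 of 1411 nt. The cuts were small in Cpsf6 and Cpsf7, the larger subunits of cleavage factor I, which kept 4466 of 4800 nt and 1812 of 2044 nt. All 3 Cpsf6 models shared the end at 116782058 on chromosome 10. Cstf3, Nudt21, Pabpc1, Papolb, Rbbp6 and Wdr33 had NM_N models, none of them shortened.

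Of 23 RNA-binding translational regulators, 14 had an NM_N model and 7 of the 14 a shortened one. Of the 4 genes of the CPEB family, whose proteins bind 3′ untranslated regions and control poly(A) tail length, 3 were members. Cpeb2 kept 23 of 4006 nt of the last exon, Cpeb3 ended 194 nt into intron 9 and both Cpeb4 models ended in exon 5, at 31820580 on chromosome 11. Cpeb1 had an NM_N model that was not shortened. Dazap1, which binds the germ-cell protein Dazl, kept 244 of 878 nt with a start 74 bp from RefSeq and no new intron. Ptbp2, a splicing regulator, kept 51 of 1719 nt, and Celf1 kept 76 of 488 nt in 1 model and ended in exon 14 in the other. Paip1, which binds the poly(A)-binding protein, ended 202 nt into intron 8.

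Of 3 genes with a shorter testis mRNA known from earlier work (Abl1, Pim1 and Crem), Abl1 alone was a member. Abl1 encodes a tyrosine kinase whose last exon codes for the C-terminal part of the protein. Its model on chromosome 2 (31543813 to 31655779) had all 11 exons of RefSeq and no new intron, and it kept 54 of the 4022 nt of the last exon. Whether this end is that of the shorter mRNA known from earlier work was not tested. The Pim1 model ended downstream of RefSeq by 200 bp or more, and Crem had no NM_N model.

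**Figure D4:**
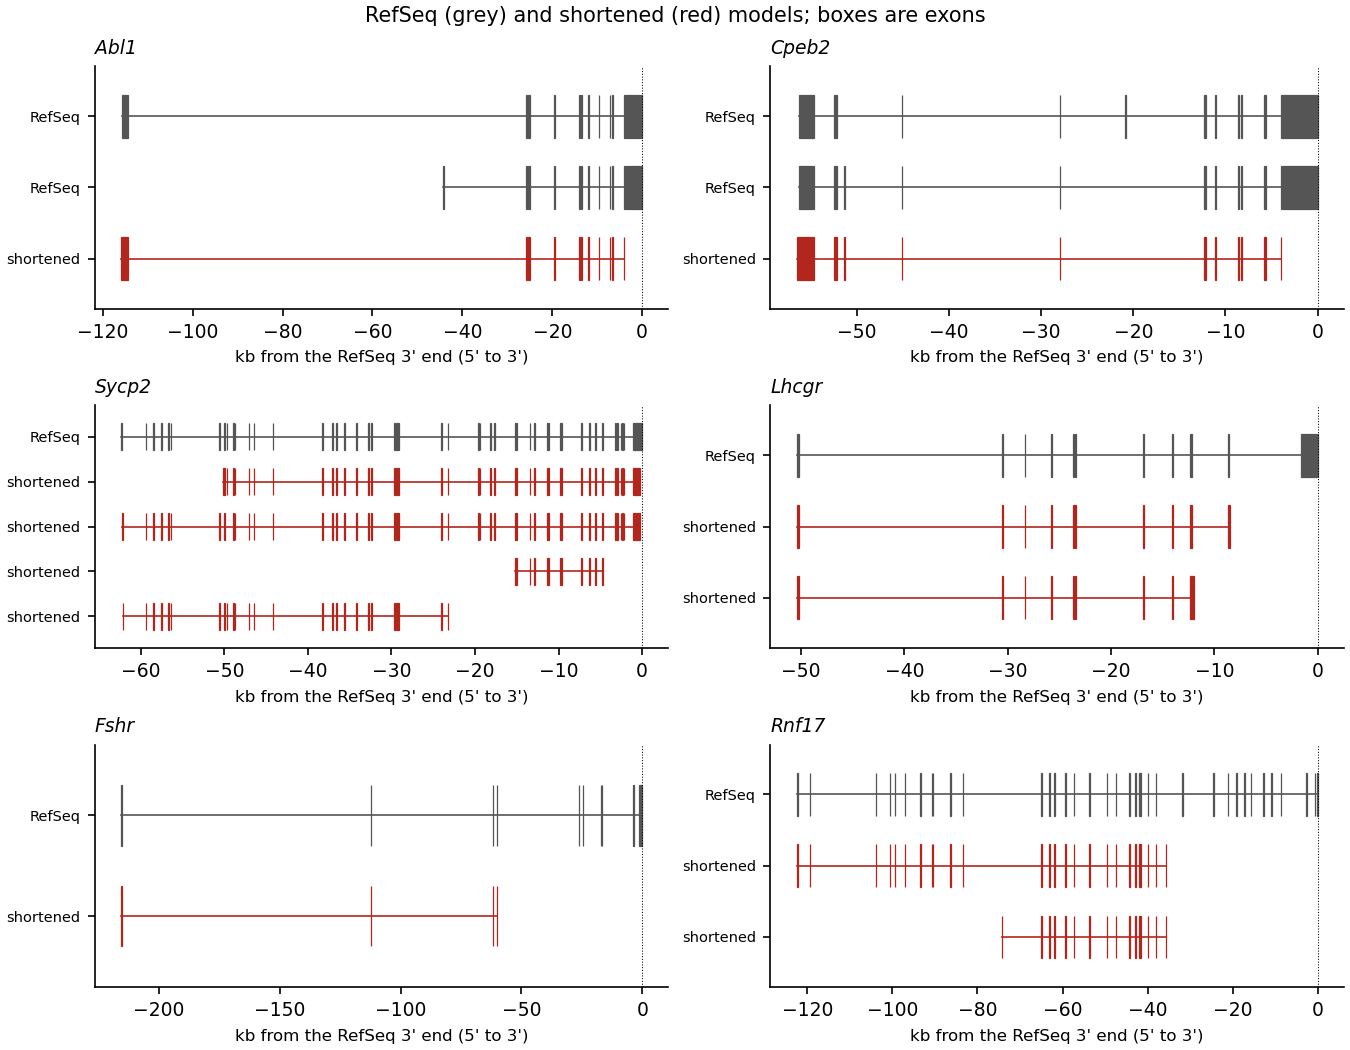
Exon maps of 6 members, drawn to scale in kb from the most distal RefSeq 3′ end (0, dotted line), 5′ to 3′ from left to right, with boxes for exons, grey for RefSeq models and red for shortened models. Abl1 and Cpeb2 models stop at the start of the last exon, Sycp2 models stop at 3 positions, and those of Lhcgr, Fshr and Rnf17 stop in introns.

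In the meiotic prophase list, 9 of 30 genes had an NM_N model and 4 of the 9 a shortened one. Sycp2, an axial element protein of the synaptonemal complex, had 4 shortened models. Of these, 2 shared an end 285 bp short of RefSeq in the last exon, and the other 2 ended in exon 38 and at the last base of exon 25. The last of these models had 25 exons and left off 19. Its end thus lay at the exon boundary and not inside the exon. How many of the 298 ends in earlier exons lay at such a boundary was not counted. Smc1b, a meiotic cohesin, kept 162 of 417 nt of the last exon, and Dmc1, the meiotic recombinase, kept 775 of 1083 nt. Hormad2, an axis protein, ended in the last intron, 7791 nt past the donor, in an exon that overlaps no RefSeq exon.

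In the piRNA pathway, 2 of 9 genes with an NM_N model were members. Both shortened models of Rnf17, a Tudor-domain protein of male germ cells, ended at 57108258 on chromosome 14, 2344 nt into intron 25, and left off the 12 exons downstream. Piwil1, a PIWI protein of spermatocytes and spermatids, ended 14 nt into a last exon of 1282 nt. The last exon of that model was 266 nt long and the model had 21 exons against 22, so the sequence of the last intron was part of the exon. Only 3 of the 2705 models shared exon bases with a piRNA-named model.

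Of 5 spermatid genes with an NM_N model, 3 were members. Hook1, a microtubule-binding protein of the spermatid head, kept 191 of 2108 nt of the last exon. Zpbp, an acrosomal protein, kept 2434 of 2658 nt in 1 model and ended in intron 6 in the other. Dnahc17, an axonemal dynein heavy chain with 81 exons, kept 302 of 1775 nt in 1 model and ended in intron 80 in the other. None of the 4 spermatogonial genes with an NM_N model (Gfra1, Id4, Sall4 and Zbtb16) was a member.

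The gonadotropin receptors had intronic ends. Their last exons are known to code for the membrane-spanning part of the receptor. Lhcgr, the luteinizing hormone receptor of Leydig cells, had 2 shortened models, which ended 100 nt into intron 10 and 226 nt into intron 9 of a gene with 11 exons. Both started 17 bp from the RefSeq start and had no new intron. Fshr, the follicle-stimulating hormone receptor of Sertoli cells, had 4 of 10 exons and ended 161 nt into intron 4, with its start at the RefSeq start. Hsd17b3, the Leydig enzyme of the last step of testosterone synthesis, had 6 of 11 exons and ended 155 nt into intron 6. With Wt1, a Sertoli transcription factor that kept 320 of 1392 nt of the last exon, these made up 2 of 6 Sertoli and 2 of 3 Leydig genes with an NM_N model. The lists are short, and against 41.7% over all genes none of these counts is a result about a list.

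Most genes had a single shortened model (1739 of 2181, 79.7%), 371 had 2, 60 had 3 and 11 had 4. In 6 of the 11, all 4 models shared 1 last-exon end and differed in starts or splicing. Ogdh, a subunit of the oxoglutarate dehydrogenase complex, kept 943 of 3540 nt from starts 473 to 1040 bp inside RefSeq. Plekhh2 kept 208 of 2519 nt, and its starts lay 358 to 46164 bp inside RefSeq. Zfp462, a zinc-finger gene, kept 95 of 2898 nt with starts 96441 to 96812 bp inside. Ankrd9 kept 1060 of 2196 nt, Mtmr12, a myotubularin-related gene, 2241 of 2739 nt, and Atad1, an AAA ATPase gene, 1487 of 1802 nt. In Mga, a MAX-binding transcription factor gene, 2 models kept 3855 of 5890 nt and 2 ended 406 nt into intron 17. The remaining 4 of these genes, Phf21a, Nol4, 4931406B18Rik and Sycp2, also had ends in more than 1 place. Over all members there were 2342 distinct 3′ positions, of which 316 were shared by 2 or more models.

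In most models the 3′ end was not the only difference from RefSeq. Of all 2705 models, 664 (24.5%, 22.9 to 26.2) started within 200 bp of a RefSeq start and had no intron that RefSeq lacks. Among last-exon ends these were 311 of 1590 (19.6%, 17.6 to 21.6). Among intronic ends they were 261 of 752 (34.7%, 31.3 to 38.2), and among ends in earlier exons 92 of 298 (30.9%, 25.7 to 36.5). The other last-exon models often began inside the gene. In 564 of 1590 (35.5%) the start lay 200 bp or more downstream of all RefSeq starts, and in 343 (21.6%) it lay 200 bp or more upstream of them. In 83.9% of the 2181 genes every NM_N model was shortened. A gene whose only NM_N model was shortened falls in this share by the choice of members alone. Such genes were not counted apart, so no conclusion is drawn from the share.

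Starts, introns and chromosome were not used by the rule, and they were compared with NM_N models whose 3′ end lay 200 bp or more downstream of every RefSeq end. In some members, which the comparisons kept, the end position still bears on starts and introns. All 65 models upstream of the RefSeq models had a new start, and 60 of them had a new intron. In 225 models with intronic ends the last exon overlapped no RefSeq exon, which requires a new intron unless the model is a single exon. There were 1338 such extended models. Each gene was represented by its longest spliced model, and 108 genes with both kinds were left out, which gave 2073 shortened and 952 extended genes. Shortened models were shorter when spliced, with a median of 2086 nt over all of them against 4095 nt over all extended models. Choosing both sides by the end position favours this difference in itself. The part of length in the differences below was not tested. New introns were more frequent in shortened genes, at 56.3% (54.1 to 58.4) against 49.4% (46.1 to 52.6). The odds ratio was 1.32 (Fisher's exact test, two-sided, adjusted p = 0.000812 over 4 comparisons), but in the members named above the end position bears on it. Last-exon ends alone, a split added after the data were seen, leave those members out. There the odds ratio for new introns was 1.76 (Fisher's exact adjusted p = 3.26e-10). New starts, at least 200 bp from every RefSeq start, were found in 53.0% (50.8 to 55.1) and 51.5% (48.2 to 54.7), an odds ratio of 1.06 that did not pass the threshold (adjusted p = 0.456, Fisher's exact test). With last-exon ends alone, a split added after the data were seen, the odds ratio for new starts was 1.22 (Fisher's exact adjusted p = 0.0326).

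Shortened genes were less often on X. The share was 2.22% (46 of 2073; 1.63 to 2.95) against 4.31% of extended genes (41 of 952; 3.11 to 5.80), an odds ratio of 0.504 (Fisher's exact adjusted p = 0.00287). With last-exon ends alone it was 0.254 (Fisher's exact adjusted p = 5.82e-06). Of all X genes with an NM_N model 48 of 171 (28.1%, 21.5 to 35.4) had a shortened one, against 2133 of 5054 elsewhere (42.2%, 40.8 to 43.6). Autosomes ranged from 35.0% on chromosome 7 to 47.4% on chromosome 14. Atrx, Cstf2 and Huwe1, described above, were among the X members.

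Opposite-strand exons near the 3′ end are given as a description with no test, since they were measured from the end position that chose the members. They lay within 500 bp of the end in 4.97% of shortened genes (4.07 to 5.99) and 9.03% of extended genes (7.29 to 11). Over all shortened models the share was 6.67% for last-exon ends, 2.13% for intronic ends and 1.01% for ends in earlier exons. At the distal RefSeq ends of the same 2181 genes it was 9.95% (8.72 to 11.3).

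**Figure D5:**
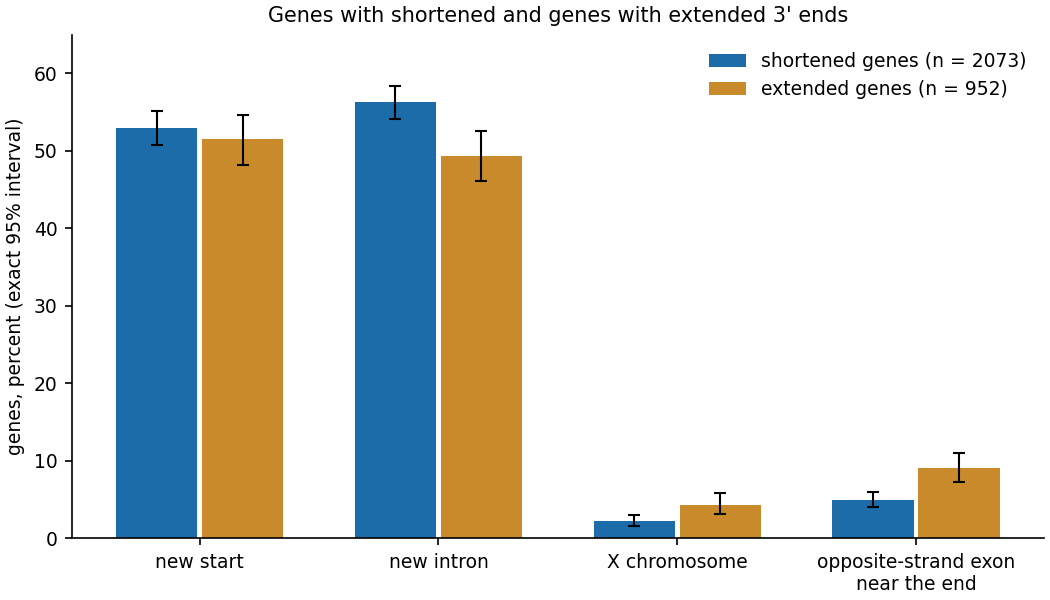
Percent of genes (vertical axis, from 0) with a new start, a new intron, a place on X, or an opposite-strand exon within 500 bp of the 3′ end, for 2073 genes with shortened ends (blue) and 952 with extended ends (orange). Bars are shares and whiskers exact 95% intervals. Shortened genes lie above extended ones for new introns (56.3% and 49.4%) and below them on X (2.22% and 4.31%). In some shortened members the end position itself bears on new starts and new introns.

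The description as shortened forms did not hold for the 65 models that ended upstream of the RefSeq models of their symbol. Nor did it hold for intronic models without exon bases in common with the RefSeq models of their gene. Such bases were shared by 732 of 752 intronic models, but not by the single-exon models of Ncor1 and Wwox. None of the 65 shared an exon base with the RefSeq models of their symbol. Of the 65, 47 shared exon bases with a RefSeq model of another symbol on the same strand. A model named for Ramp1 had 15 exons and overlapped Rbm44, 1 named for Scly overlapped Ube2f, and 2 named for Aarsd1 overlapped Ptges3l. Both shortened models named for Tcea1 overlapped Lypla1, and 1 of them ended 51103 bp upstream of the nearest Tcea1 RefSeq end while the other ran on into intron 9 of Tcea1. Among the other 2640 models, which end within the span of the RefSeq models, such overlaps were found for 22 of 1590 last-exon ends, 8 of 752 intronic ends and 4 of 298 ends in earlier exons. RefSeq models coded XX_R were the only ones to compare with for 78 of the 2705 models. What that code stands for was not stated in the labels.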

How the data were processed

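The series holds CAGE and PAS-Seq libraries of mouse testis and 1 deposited BED table of 12 columns, which names no library. The submitters' processing notes name TopHat2 2.0.4 as a tool and mm9 as the build. How models were assembled, filtered and coded, and whether CAGE and PAS-Seq reads set their starts and ends, was not stated in the labels or the file, and no coding region was used. The authors' positions and exon lengths were used as deposited, counted from 1.

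Ends in the last exon were classed against the RefSeq model with the most distal 3′ end. Earlier exons and introns were sought in all RefSeq models of the gene. An end in the last exon of a RefSeq model with a less distal end was thus counted under earlier exons, as in Lrrfip1. A new intron is one whose boundaries match no RefSeq model of the gene. Shares have exact Clopper-Pearson 95% intervals. Groups of genes were compared by Fisher's exact test, two-sided, with Benjamini-Hochberg adjustment over 4 comparisons (opposite-strand exons are among the 4, but no p-value is given for them) and a threshold of 0.05 (Python 3.11.15, SciPy 1.17.1). The classification was first tested on simulated data.

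Members and lists were chosen with earlier results of these data known. Named genes are, by rule, the 10 largest last-exon cuts, the 5 earlier-exon and 10 intronic ends with most exons left off, the genes with most members (11 tied at 4), models nearest 200 bp, and list members. One gene that the rule names is not reported here. Genes in the text on microRNAs, on models upstream of RefSeq and on single assembled ends were chosen after their values were seen. No mm9 genome was used, so sequence at the ends, such as polyadenylation signals, was not analysed here. Alternatives were other distances, RefSeq sides, model filters and windows.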

Additional observations from a re-analysis of the deposited data

How the results depend on the processing

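The number of shortened models was 3149 at a limit of 100 bp, 2175 at 500 bp and 1788 at 1000 bp, and stayed between 2181 and 2705 under the other alternatives. The share of ends in the last exon followed the limit, at 64.5%, 49.1% and 39.9% for 100, 500 and 1000 bp, since a larger limit leaves out ends near the RefSeq end. It was 56.8% with 1 model a gene, 60.7% with models that overlap a RefSeq exon of the gene and 60.9% without models whose last exon is under 50 nt. The odds ratio for new starts was 0.942 with a limit of 50 bp for a new start, against 1.06, and passed in neither case (Fisher's exact adjusted p = 0.494 and 0.456). With last-exon ends alone it was 1.22 and passed. The odds ratio for opposite-strand exons, a description since it depends on the end position, was 0.761 with last-exon ends alone, against 0.526. The cause was not tested. The odds ratio for new introns stayed between 1.2 and 1.76 and that for X between 0.254 and 0.521, and both passed under every alternative tried. No paired analysis was possible because each group held 1 library and the table gives no value per library. The lack of read counts limits every statement on how well an end is supported. The alternatives with last-exon ends alone, with RefSeq models coded NM_R alone, without models that share exons with another symbol and without short last exons were added after the data were seen.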

Other observations

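Gene families were taken by symbol prefix after the data were seen, and the share of their genes with an NM_N model that had a shortened one is given beside the 41.7% of all such genes, with no test. It was 52.7% for coiled-coil domain genes (Ccdc, 29 of 55; 95% interval 38.8 to 66.3) and 53.3% for ubiquitin-specific proteases (Usp, 16 of 30; 34.3 to 71.7). It was 31.2% for zinc-finger genes (Zfp, 39 of 125; 23.2 to 40.1) and 23.1% for Gm-named gene models (Gm, 9 of 39; 11.1 to 39.3). The other prefixes with at least 30 genes were Fam at 35.7% (25 of 70), Tmem at 38.7% (24 of 62), Slc at 39.4% (37 of 94), Rnf at 41% (16 of 39) and Wdr at 46.7% (14 of 30). The intervals for all of these prefixes but Zfp and Gm include 41.7%. Those for Zfp and Gm lie below it, but the intervals are not corrected for the number of prefixes looked at.

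The end furthest from RefSeq was in Wwox, a gene of an oxidoreductase with WW domains. A single-exon model of 2937 nt on chromosome 8 lay wholly within intron 4, 898973 bp upstream of the RefSeq end, and overlapped no RefSeq exon of the gene. It was chosen after its value was seen.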
